A study of Mus musculus with 6 samples.

Results

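The 4 JAK kinase genes Jak1, Jak2, Jak3 and Tyk2 and the 5 STAT factor genes Stat2, Stat3, Stat5a, Stat5b and Stat6 were followed through 6 RNA sequencing libraries of mouse LSK cells. These 9 genes were taken by symbol from 48395 rows of gene counts, of which 26164 were above 0 in at least 1 library, and all 9 passed the filter on low counts that 16739 genes passed. LSK cells are the lineage-negative, Sca-1-positive, c-Kit-positive fraction of bone marrow, in which stem cells of the blood and their nearest progenitors are found. All 6 libraries came from marrow of the same donor genotype, Mx1Cre with Jak2VF/+, that is 1 activating allele of Jak2 beside a normal one, so no library shows the genes without that allele. The Mx1 promoter that drives the recombinase is interferon-inducible and is not restricted to blood cells. Donors were primed with 5-fluorouracil, their marrow was infected with lentivirus in 2 rounds, and 1000000 cells were injected into each C57BL/6 recipient, which had been irradiated with 2 doses of 550 cGy. In 3 libraries the lentivirus carried the vector alone (the vector libraries), and in the other 3 it was labelled as carrying Hmga2, which encodes an architectural protein of chromatin. LSK cells were sorted 32 weeks after transplantation. The libraries of a group are called biological replicates, but no label ties each to a mouse of its own, so tests below measure the spread between these libraries. The labels name no sort for infected or donor cells and give no age or sex, so remaining host cells cannot be told apart from donor cells, and reads of the normal and the activating Jak2 allele were counted together.

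JAK kinases are tyrosine kinases that sit on the intracellular tails of cytokine receptors. When a cytokine brings receptor chains together, the kinases phosphorylate each other and the receptor, and STAT factors dock there, are phosphorylated in turn, pair up and enter the nucleus to act on transcription. In the marrow, Jak2 with Stat5a and Stat5b carries signals of the erythropoietin and thrombopoietin receptors, Jak1 serves interleukin 6 family and interferon receptors, Jak3 pairs with the common gamma chain, and Tyk2 serves type I interferon and interleukin 12 receptors. RNA counts say nothing of the phosphorylation state of these proteins.

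Total counts per library ranged from 24818011 to 35471806. Hmga2 itself was at 5.96, 5.04 and 7.03 CPM (counts per 1000000, with library sizes scaled by TMM factors) in vector replicates 1, 2 and 3, against 2.63, 6.63 and 5.91 CPM under the label Hmga2, so its level did not bear out the label, and directions below belong to "the libraries labelled Hmga2". The sources used here do not tell whether the introduced sequence was counted. Of the genes behind the LSK label, Kit was at 248 to 375 CPM and Ly6a, which encodes Sca-1, at 19.3 to 59.1 CPM. The granulocyte marker Mpo was at 1990 to 6340 CPM, so Kit by itself does not bear out the label. Defining T cell genes were near 0, with Cd3e at 0 to 0.0419 CPM. Summed over 10 B and plasma cell markers, vector replicates 1 and 3 and Hmga2 replicate 2 were at 13600, 11600 and 4460 CPM against 500 to 711 CPM in the others. These 3 libraries are called immunoglobulin-rich below. Summed Y-linked genes were at 191 and 129 CPM in Hmga2 replicates 1 and 3 and at 21.4 CPM in vector replicate 2. The immunoglobulin-rich libraries were at 5.24 to 6.73 CPM, so that split and the Y-linked level cannot be told apart. In bulk samples such as these, fewer cells of a type and less RNA per cell cannot be told apart.

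Before the values, a stretch of sequence is shown because it limits how well Stat5a and Stat5b can be told apart. The genes lie beside each other on chromosome 11 in opposite orientation, at 100859351 to 100885169 (Stat5a, plus strand) and 100780731 to 100850724 (Stat5b, minus strand) on mm10. In their longest protein-coding transcripts of the GENCODE annotation, the coding sequences of 2379 and 2358 bases share an identical run of 324 bases over 3 exons (exons 7, 8 and 9 of Stat5a and exons 6, 7 and 8 of Stat5b). The 152 bases of the middle exon, at chr11:100874339-100874490 in Stat5a and chr11:100798234-100798385 in Stat5b, read as follows, in lower case throughout since no base differs.
Stat5a exon 8 and Stat5b exon 7: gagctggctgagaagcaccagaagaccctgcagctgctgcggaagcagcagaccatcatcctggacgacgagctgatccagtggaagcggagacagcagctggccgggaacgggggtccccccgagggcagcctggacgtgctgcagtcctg
Of all 50-base windows of the longest transcript, 608 were shared with the partner gene, which is 15.8% of the Stat5a windows and 11.8% of the Stat5b windows. Reads from such windows are split by a model in estimated counts, so values of the pair are uncertain to that extent. The Jak3 transcript shared 355 windows (8.94%) with Insl3, a gene on the same strand whose annotated exons overlap those of Jak3 by 404 bases and whose counts were 4.98% to 8.2% of those of Jak3. The other 6 members shared 0 such windows with a transcript of any other gene. Stat3 and Stat5a overlap tail to tail by 72 exonic bases on opposite strands. Exons of opposite strands also overlap between Stat6 and Nab2 (40 bases; Nab2 had 13.3% to 27.5% of the Stat6 count), between Tyk2 and 1700084C06Rik (554 bases) and between Jak1 and Raver2 (4 bases), and the sources used here do not name a strand setting.

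A promoter sequence is shown for Stat2, the partner of Irf9 in the factor that answers type I interferon, because it alone among the 11 RefSeq promoter windows of the 9 members (250 bases before to 50 bases after a start site) held any of the motifs searched. Each motif was searched on both strands. The core of the interferon-stimulated response element, GAAA and GAAA with 2 bases of any kind between them, was in 3.44% of all 32851 promoter windows. The STAT motif of TTC and GAA with 3 bases between them was in 8.3%, and that with 4 bases between them in 6.95%. Capitals mark the match to the interferon motif, read as its reverse complement and starting 222 bases before the start site, and the match to the STAT motif with 4 bases between, starting 210 bases before it. The matches do not overlap each other.
Stat2 promoter, chr10:128270248-128270547, plus strand, RefSeq on GRCm38.p6: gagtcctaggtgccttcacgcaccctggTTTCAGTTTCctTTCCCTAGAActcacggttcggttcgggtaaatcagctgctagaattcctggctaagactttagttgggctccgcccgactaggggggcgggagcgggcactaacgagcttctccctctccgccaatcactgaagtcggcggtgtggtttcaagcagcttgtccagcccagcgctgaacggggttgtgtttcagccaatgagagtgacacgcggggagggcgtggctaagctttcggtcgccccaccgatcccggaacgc
A match is a run of letters and not a measured binding site, and no binding was measured here.

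All 9 genes were expressed in every library, with 1120 to 9347 reads behind each value. To compare genes with each other, CPM was divided by the length of the union of annotated exons. On this scale of CPM per kilobase (mean ± SD over the 6 libraries), Jak3 stood first at 36.7 ± 4.59, followed by Jak1 at 32.1 ± 2.78, Stat5b at 31.2 ± 3.99, Stat6 at 27.9 ± 1.33, Stat5a at 25.6 ± 1.59 and Stat3 at 21.9 ± 1.6. The lower levels per kilobase belonged to Jak2 at 14.1 ± 2.07, Tyk2 at 12.1 ± 2.62 and Stat2 at 8.81 ± 1.17. Among the 16292 tested genes with an annotated length these levels ran from the 60.9th percentile (Stat2) to the 88th (Jak3). Jak2, the kinase that carries the activating allele, made up 12.4% to 17.6% of the summed level of the JAK genes per kilobase across libraries and Tyk2 9.75% to 16.5%, against 33.8% to 44.1% for Jak3 and 31.1% to 36.9% for Jak1. Among the 5 STAT genes the largest share per kilobase was that of Stat5b, 26% ± 0.536 with the vector and 28% ± 1.52 under the label Hmga2, and the smallest that of Stat2, 7.44% ± 0.563 and 7.79% ± 0.53 (SD, n = 3 each). With the longest transcript as length the largest STAT share was that of Stat5a, 29.5% ± 0.883 and 28.8% ± 1.28.

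None of the 8 neighbour pairs in that order passed at an adjusted p under 0.05, and the order came from the same 6 libraries as the tests. Stat5a was higher per kilobase than Stat3, Stat3 than Jak2 and Tyk2 than Stat2 in 6 of 6 libraries (exact two-sided sign-flip permutation p = 0.0312 each, the smallest that 6 libraries allow, adjusted p = 0.0832 over 8 neighbour pairs). The other 5 neighbour pairs had adjusted exact permutation p from 0.15 to 0.594. Which exons the authors' counting used is unknown, and the order within the upper group depended on the length. With the longest transcript as length, Stat5a moved from the fifth to the third place at 46.1 ± 2.86 CPM per kilobase, Stat3 stood at 34.5 ± 2.52 before Stat5b at 33.2 ± 4.24, and Tyk2 at 17.2 ± 3.72 stood before Jak2 at 14.1 ± 2.07. Jak3 and Jak1 led and Stat2 was last with both lengths.

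**Figure D1:**
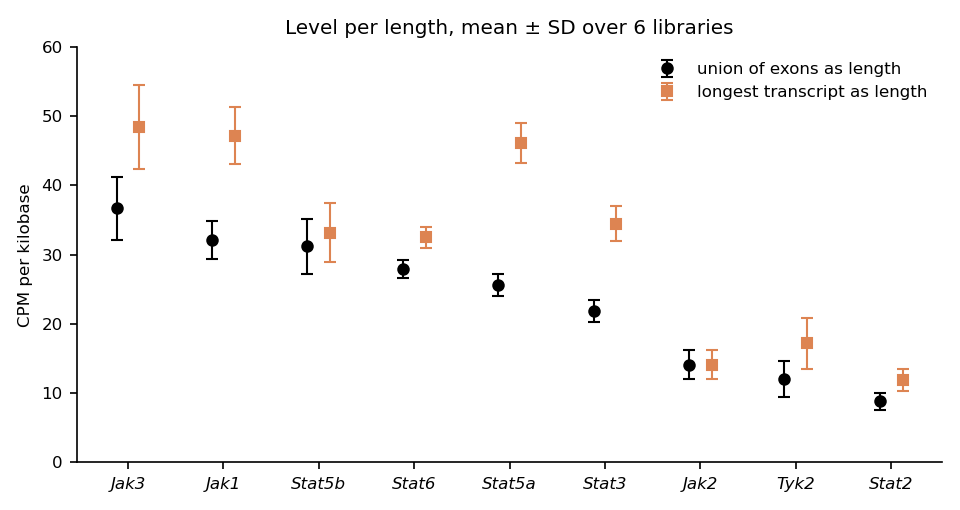
Level of each gene in CPM per kilobase (vertical axis), as mean and SD over the 6 libraries, with the union of exons (circles) or the longest transcript (squares) as length. Jak3, at 36.7 with the first length and 48.4 with the second, and Jak1, at 32.1 and 47.2, stand highest, and Stat2 is lowest at 8.81 and 11.9.

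Against this background of levels, the comparison of the libraries labelled Hmga2 with the vector libraries gave no gene past the threshold (adjusted p under 0.05 over all 16739 genes, edgeR quasi-likelihood test). Of the 9 members 0 were called, where the background was 0% of all genes with edgeR and 0.424% (71 genes) with DESeq2, which also called 0 members. At an unadjusted p under 0.05 edgeR had 2 members, Stat3 and Stat5b, both higher in the libraries labelled Hmga2, beside 935 genes or 5.59% of all in either direction and 2.23% higher. The log2 fold change was above 0 for 9 of 9 members, with a median of 0.16, beside 50.4% of all genes and a median of 0.00. Since several members varied together from library to library, the 9 are not separate observations. The 8 LSK markers had a median of 0.15 (6 positive), with summed levels of 1190 to 1380 CPM with the vector and 1390 to 1530 CPM under the label Hmga2. Granulocyte, erythroid and B and plasma cell markers had medians of -1.63, -0.82 and -1.98, and the 5 tested megakaryocyte markers 0.208 (5 positive). The part of cell composition in the members' values was not tested. On counts simulated for the same genes and libraries, edgeR recovered 40 of 100 genes changed 2-fold and 71 of 100 changed 4-fold. The changed genes were drawn at random from all tested genes, so this recovery does not measure the power for the members. Every member's 95% interval ended under a 1.5-fold increase.

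**Figure D2:**
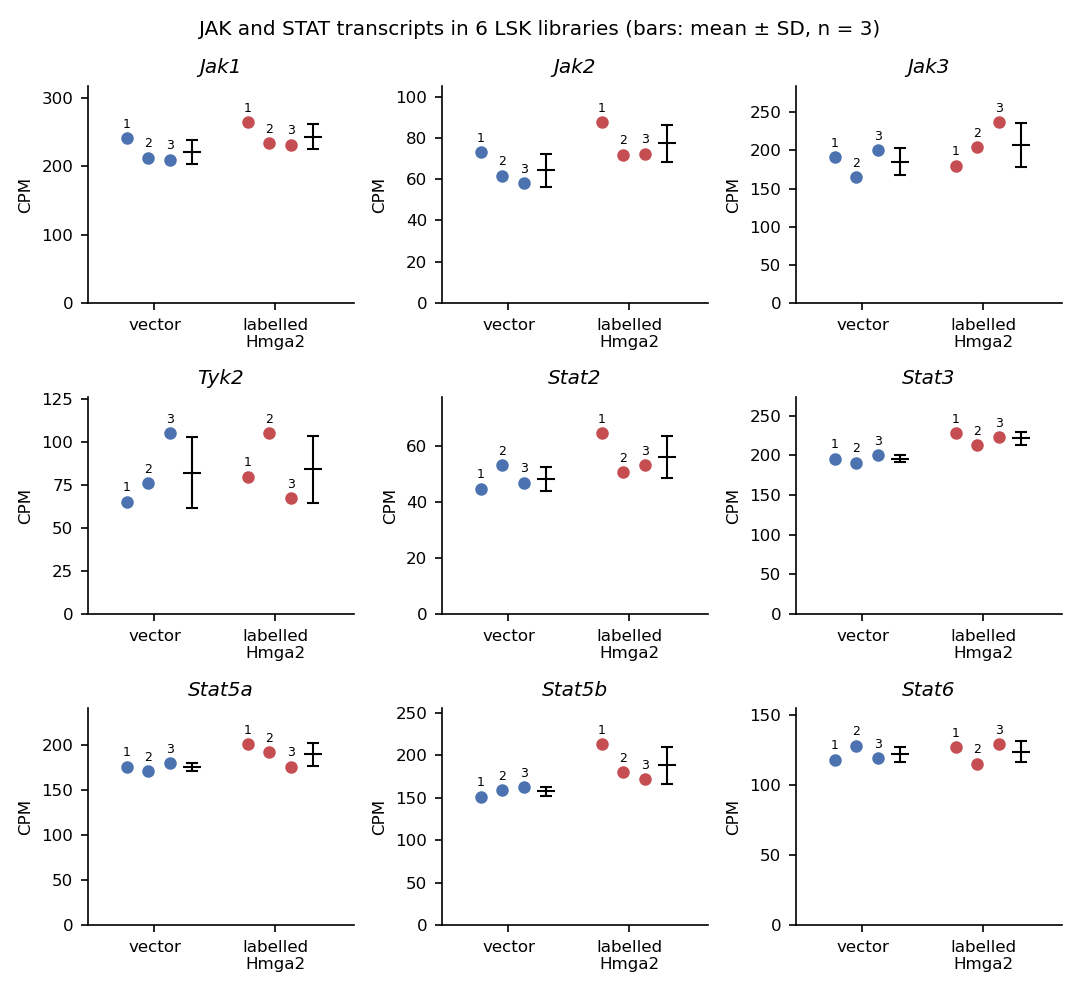
CPM of each gene (vertical axes, starting at 0) in the 3 vector libraries and the 3 libraries labelled Hmga2, with replicate numbers above the points and the mean and SD of each group at its right. Stat3 and Stat5b are the 2 genes whose groups do not overlap; for Stat5b the vector points end at 162 CPM and the others begin at 172 CPM.

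Among the kinases, Jak1 (chromosome 4, 101152367 to 101265282, minus strand) was measured at 241, 212 and 209 CPM in vector replicates 1, 2 and 3, against 264, 233 and 231 CPM in Hmga2 replicates 1, 2 and 3. The groups overlapped through vector replicate 1. Its log2 fold change was 0.14 (standard error 0.09, 95% interval -0.08 to 0.35, adjusted p = 0.855, edgeR), and 0.07 without Hmga2 replicate 1.

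Jak2, the kinase of the erythropoietin and thrombopoietin receptors (chromosome 19, 29251828 to 29313080, plus strand), was at 73, 61.7 and 57.9 CPM with the vector and 87.6, 71.9 and 72.4 CPM under the label Hmga2. Vector replicate 1 lay just above Hmga2 replicates 2 and 3, and all 3 libraries labelled Hmga2 lay above the vector mean of 64.2 ± 7.84 CPM (SD, n = 3). The fold change of Jak2 was 1.2, with an interval from 0.98 to 1.47, or 0.27 on the log2 scale (standard error 0.12, adjusted p = 0.855, edgeR; adjusted p = 0.845, DESeq2). The log2 value was 0.37 without vector replicate 1 and 0.17 without Hmga2 replicate 1, and 0.19 with a covariate for Y-linked genes. The difference of mean log2 CPM was 0.14 within the immunoglobulin-rich libraries (vector replicates 1 and 3, Hmga2 replicate 2) and 0.37 within the others. Each of these differences rests on 1 library on one side.

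Jak3, which pairs with the common gamma chain of lymphoid cytokine receptors (chromosome 8, 71676296 to 71690575, plus strand), was at 191, 165 and 200 CPM with the vector and 180, 204 and 237 CPM under the label Hmga2. The groups overlapped, with a log2 fold change of 0.16 (standard error 0.12, adjusted p = 0.865, edgeR). The value was 0.05 without Hmga2 replicate 3, 0.08 without vector replicate 2 and 0.25 without Hmga2 replicate 1. Tyk2 (chromosome 9, 21104068 to 21131243, minus strand) varied most among the members, at 65.3, 76 and 105 CPM against 79.7, 105 and 67.2 CPM. The highest Tyk2 values belonged to vector replicate 3 and Hmga2 replicate 2, both immunoglobulin-rich, but vector replicate 1, which is immunoglobulin-rich as well, had the lowest; the part of those cells in the Tyk2 values was not tested. Its coefficient of variation was 25.3% within the vector group and 23% in the other, where counting error alone gives 1.76% to 2.25%. The log2 fold change of Tyk2 was 0.03 with a 95% interval from -0.49 to 0.55, and its sign turned when vector replicate 1, vector replicate 2 or Hmga2 replicate 2 was left out.

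Among the factors, Stat3, which acts downstream of the interleukin 6 family and of granulocyte colony-stimulating factor, showed the smallest spread (chromosome 11, 100885098 to 100939540, minus strand). It was at 196, 191 and 200 CPM with the vector and 228, 213 and 223 CPM under the label Hmga2. The groups did not overlap, as was so for 2 of the 9 members, both higher under the label Hmga2, and for 11.2% of all genes in either direction and 5.28% higher. The fold change of Stat3 was 1.13, with an interval from 1.02 to 1.26, or 0.18 on the log2 scale (standard error 0.07), which did not pass over all genes (adjusted p = 0.855, edgeR; adjusted p = 0.58, DESeq2). An exact two-sided permutation test gave p = 0.1, the smallest that 3 against 3 libraries allow. Across the 15 alternative settings its log2 fold change ran from 0.15 to 0.21.

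Stat5b, the second gene whose groups did not overlap, was at 151, 159 and 162 CPM with the vector and 213, 180 and 172 CPM under the label Hmga2. Hmga2 replicate 1 stood highest, and the log2 fold change was 0.16 without it and 0.26 with all libraries (standard error 0.10, 95% interval 0.03 to 0.49, adjusted p = 0.855, edgeR). Within the immunoglobulin-rich libraries the difference of mean log2 CPM was 0.21 and within the others 0.27, each with 1 library on one side. Its neighbour Stat5a, with which it shares the coding run shown above, was at 176, 171 and 180 CPM, then 201, 192 and 176 CPM. Hmga2 replicate 3 lay among the vector values of Stat5a, whose log2 fold change was 0.11 (standard error 0.08, adjusted p = 0.857, edgeR), and 0.07 without Hmga2 replicate 1.

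Stat2 (chromosome 10, 128270559 to 128292849, plus strand) was at 44.7, 53.1 and 46.9 CPM with the vector and 64.6, 50.7 and 53.2 CPM under the label Hmga2. Hmga2 replicate 1 stood highest, and the groups overlapped through vector replicate 2. The log2 fold change of Stat2 was 0.22 (standard error 0.12, adjusted p = 0.855, edgeR), 0.11 without Hmga2 replicate 1 and 0.08 with a covariate for Y-linked genes. Irf9, which forms the interferon-stimulated factor with Stat2, was at 78.8, 82.3 and 70 CPM, then 94.8, 89.5 and 73 CPM, with adjusted p = 0.865 in edgeR. Stat6, which answers interleukin 4 and interleukin 13 (chromosome 10, 127642986 to 127660957, plus strand), was at 118, 128 and 119 CPM, then 127, 115 and 129 CPM. The groups of Stat6 lay within each other, and its log2 fold change of 0.02 had a 95% interval from -0.16 to 0.20, or 0.89-fold to 1.14-fold.

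**Figure D3:**
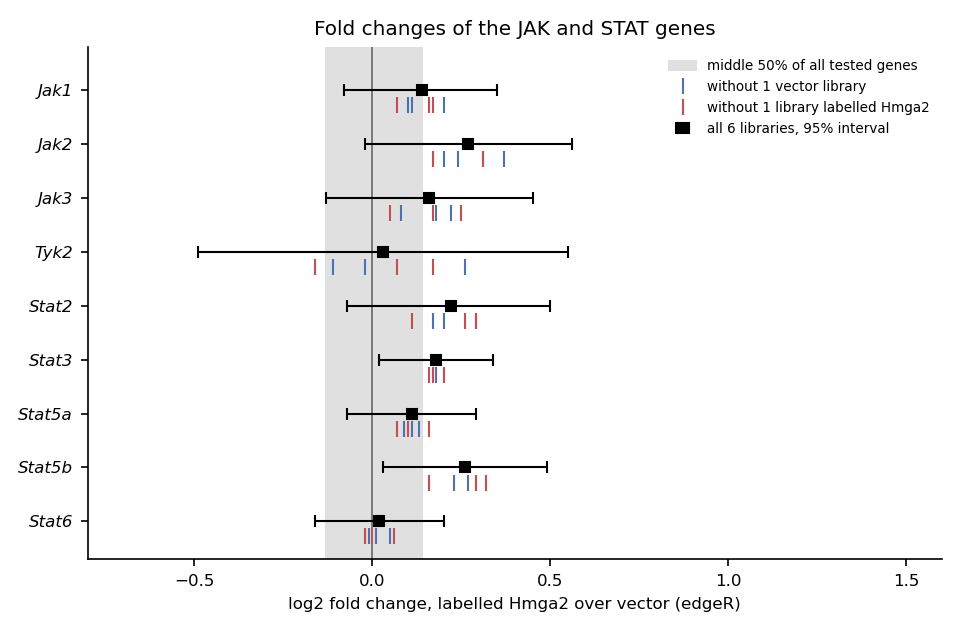
log2 fold change of each gene, labelled Hmga2 over vector, from edgeR (squares, with 95% intervals), with the values after leaving out 1 library as ticks below and the range of the middle 50% of all tested genes in grey. The intervals of Stat3 (0.02 to 0.34) and Stat5b (0.03 to 0.49) lie above 0 before adjustment over all genes, and those of the other 7 genes include 0.

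Hmga2 replicate 1 had the highest value of 6 of the 9 members (Jak1, Jak2, Stat2, Stat3, Stat5a and Stat5b), and no member was lowest in it. The median member stood 0.14 (log2) above its mean over all libraries there, against 0.03 in both other libraries labelled Hmga2 and -0.12 to -0.05 in the vector libraries. Hmga2 replicate 1 was also the library with the most reads and the highest summed level of Y-linked genes, and their part in these values was not tested. The biological coefficients of variation estimated by edgeR ran from 0.087 (Stat3) to 0.201 (Tyk2), beside a median of 0.201 over all tested genes.

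Ratios between members within a library do not depend on how libraries are scaled. The log2 ratio of Jak2 to Jak1, in CPM and not per length, was -1.72, -1.78 and -1.85 with the vector and -1.59, -1.7 and -1.67 in the libraries labelled Hmga2, with no overlap and a difference of 0.13. The log2 ratio of Stat5a to Stat5b was 0.22, 0.1 and 0.15 and then -0.08, 0.09 and 0.03, also with no overlap, and a difference of -0.15. Both had exact two-sided permutation p = 0.1, the smallest the design allows, and adjusted p = 0.15 over the 3 ratios tested. The ratio of Stat3 to the sum of Stat5a and Stat5b averaged -0.77 in both groups (difference 0.00, exact permutation p = 1).

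Over the 6 libraries Jak1 and Jak2 followed each other closely, although they lie on chromosomes 4 and 19. Pearson's r of their log2 CPM was 0.99 (exact permutation p = 0.0028) and Spearman's rho 0.94 (exact permutation p = 0.0167), with adjusted p = 0.101 and 0.4 over the 36 pairs of members. Without the 2 libraries farthest from the median of Jak1, r was 0.96 over 4 libraries, and for deviations from the group means it was 0.99. Stat5a and Stat5b had r = 0.9 and rho = 0.89 (exact permutation p = 0.0153 and 0.0333, adjusted p = 0.225 and 0.4). For deviations from the group means r was 0.81. Without the 2 libraries farthest from the median of Stat5a r was 0.19, so that relation rests on those libraries. The 4 libraries left span only 171 to 180 CPM of Stat5a, a narrow range over which r is poorly determined. Of the 36 pairs, 0 passed at an adjusted p under 0.05 and 4 had an unadjusted exact permutation p under 0.05 for r. By r, the nearest member to Stat3 and to Stat5a was Stat5b, to Stat2 Stat5b (0.88), to Stat6 Stat2 (0.6), to Jak3 Stat3 (0.49) and to Tyk2 Stat5a (0.42).

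Both Jak1 and Jak2 were highest in Hmga2 replicate 1 and lowest in vector replicates 2 and 3. Among 10201 named genes with a mean of at least 5 CPM, those most like Jak2 over the 6 libraries were Pdcl, Polk, Mctp1, Zfp763 and Cnot6l, with r from 0.989 to 0.993. At the looser bound of r above 0.9 there were 460 of these genes. Cnot6l, which encodes a subunit of the CCR4-NOT deadenylase, ran at 90.3, 72.5 and 66.8 CPM with the vector and 107, 88.8 and 92 CPM under the label Hmga2, which is the order of Jak2 except that vector replicate 1 and Hmga2 replicate 3 trade places.

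**Figure D4:**
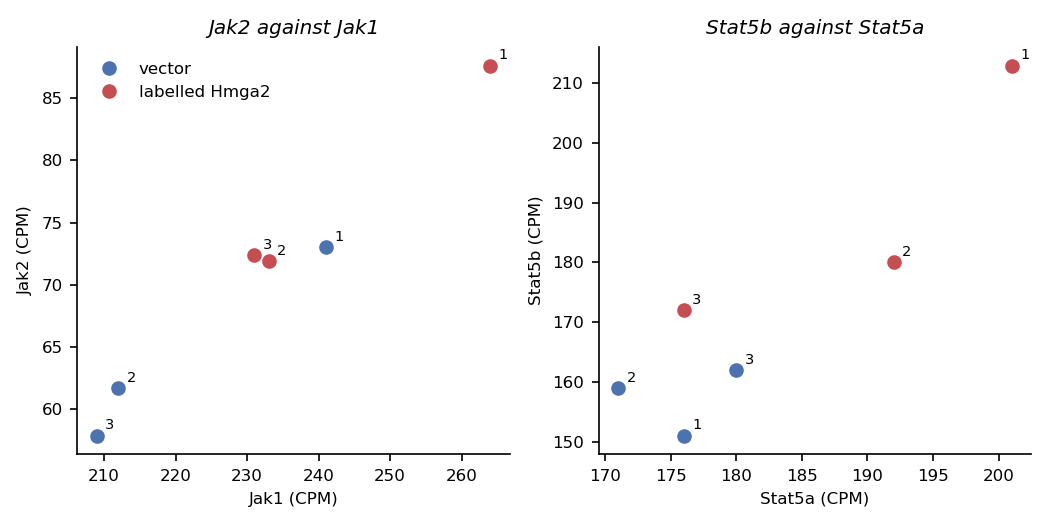
Jak2 against Jak1 (left) and Stat5b against Stat5a (right), in CPM, 1 point per library with its replicate number; the axes do not start at 0. Jak2 climbs with Jak1 from 57.9 CPM in vector replicate 3 to 87.6 CPM in Hmga2 replicate 1, while the Stat5 pair lies close together in the vector libraries, with Stat5b between 151 and 162 CPM, and is highest in Hmga2 replicate 1.

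Around the kinases and factors, 3 lists of pathway genes were read in the same fit, and 0 of their genes passed in edgeR. Of 33 receptor chains that bind JAK kinases 31 were tested. Their log2 fold changes were positive for 19 and negative for 12, around a median of 0.05 (0.01 without Hmga2 replicate 3, 0.14 without Hmga2 replicate 2), and the groups did not overlap for 0 of them beside 11.2% of all genes. Il21r, a partner of the common gamma chain, was at 21.7 ± 2.51 and 28.2 ± 3.37 CPM (vector, then labelled Hmga2, SD, n = 3 each), and Il27ra at 33.9 ± 6.2 and 39.3 ± 4.54 CPM. Epor, the erythropoietin receptor that signals through Jak2, was at 43.3, 50.2 and 27.7 CPM, then 27.2, 31.1 and 23.9 CPM, so vector replicate 3 lay among the libraries labelled Hmga2. Its log2 fold change was -0.56 (standard error 0.22, adjusted p = 0.855, edgeR). Summed over 9 erythroid markers, which include no receptor of the list, the vector libraries ran from 888 to 1330 CPM and the others from 539 to 1080 CPM, and the part of erythroid cells in the Epor values was not tested. Csf2ra, the alpha chain of the granulocyte-macrophage colony-stimulating factor receptor, was at 63.6 ± 9.62 and 51.2 ± 8.95 CPM. Summed over 10 granulocyte markers, the vector libraries ran from 4050 to 8580 CPM and the others from 2730 to 4410 CPM. Most of each sum was Mpo, at 1990 to 6340 CPM, whereas Ngp, Ltf, S100a8, S100a9 and Camp were at 5.8 CPM or less. The part of cells with these markers in the Csf2ra values was not tested either.

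Of 27 inhibitors and adaptors all were tested. Log2 fold changes were positive for 19 and negative for 8, around a median of 0.06 (0.03 without Hmga2 replicate 1, 0.10 without vector replicate 1), and 3 genes had groups that did not overlap, a share near the 11.2% of all genes. Those 3 were Ptprc, the phosphatase CD45 that acts on JAK kinases, at 124 ± 9.25 and 154 ± 18.8 CPM, the ubiquitin ligase gene Cblb at 35 ± 3.17 and 41.1 ± 1.6 CPM, and the kinase gene Lyn at 83.6 ± 7.29 and 92.6 ± 3.39 CPM. Pias1, an inhibitor of STAT factors in the nucleus, was at 44.4 ± 3.34 and 49.3 ± 2.17 CPM. The adjusted p was 0.855 for each in edgeR. The feedback inhibitor genes Cish and Socs2, known targets of Stat5, were chosen after their values were seen. Cish was at 37.7, 10.5 and 17.7 CPM with the vector and 14, 18.2 and 24.5 CPM under the label Hmga2, and Socs2 at 27.7, 3.81 and 8.46 CPM, then 3.65, 10.3 and 11.8 CPM. Both were highest in vector replicate 1 and neither separated the groups, whereas Stat5a and Stat5b were highest in Hmga2 replicate 1.

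Of 28 listed STAT target genes, 22 had negative and 6 positive log2 fold changes, around a median of -0.19, where 50.4% of all genes were positive. Among the 22, Bcl2l1, Mcl1 and Ccnd3 were at -0.0 and Gfi1b at -0.03. The groups of 1 gene, Xbp1, did not overlap, beside 11.2% of all genes. Markers of some other cell types had negative medians as well. The lowest was -1.98 for 10 B and plasma cell genes (2 positive), followed by -1.88 for the 4 tested of 6 neural genes (0 positive). Medians were -1.63 for 10 granulocyte genes (1 positive) and -0.82 for 9 erythroid genes (3 positive). Of the granulocyte genes, Ngp, Ltf, S100a8, S100a9 and Camp were at 5.8 CPM or less in every library. Megakaryocyte markers went the other way, with a median of 0.208 for the 5 tested of 6 genes (5 positive), as did the 1 tested T cell gene (0.428). The summed level of the 6 neural genes was 324, 378 and 119 CPM with the vector and 122, 144 and 111 CPM under the label Hmga2. Most of it was Mbp alone, at 266, 312 and 108 CPM, then 118, 133 and 107 CPM. Mobp was at 38.7, 46.7 and 4.98 CPM, then 0.876, 4.68 and 0.758 CPM. The part of any of these cell types in the values of the target list was not tested. The list shares Cish, Socs1, Socs2 and Socs3 with the list of inhibitors. Xbp1, a transcription factor gene of the unfolded protein response, was at 162, 164 and 171 CPM with the vector and 139, 125 and 128 CPM under the label Hmga2. It was the 1 gene of the 3 lists that passed in DESeq2 (adjusted p = 0.0187), and it did not pass in edgeR (log2 fold change -0.34, adjusted p = 0.855). With DESeq2 and the replicate block, an alternative added after seeing the data, it did not pass (adjusted p = 0.177). Xbp1 is also high in plasma cells, and their part in its values was not tested. Podxl was at 76.2, 51.9 and 28.4 CPM, then 22.7, 23.3 and 33.2 CPM, with overlap through vector replicate 3 and a log2 fold change of -0.99 (standard error 0.34). Cebpd, a known target of Stat3, was at 12.5 ± 5.14 and 7.15 ± 1.75 CPM, and Irf1, which encodes an interferon-responsive factor, at 119 ± 9.14 and 138 ± 15.2 CPM. The median of the target list was -0.31 without Hmga2 replicate 3 and -0.04 without vector replicate 1.

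**Figure D5:**
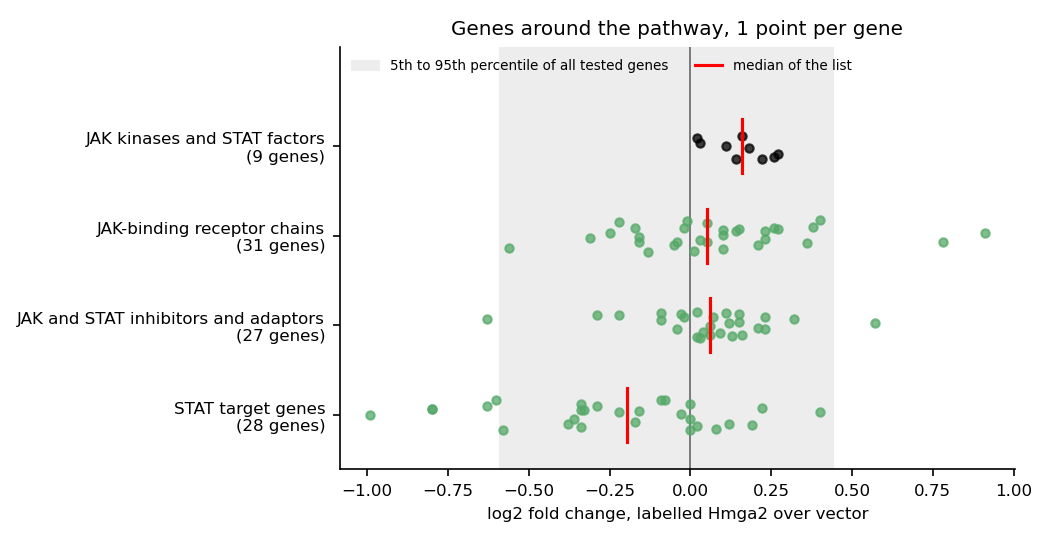
log2 fold changes, labelled Hmga2 over vector, of the 9 members and of the tested genes of the 3 pathway lists, 1 point per gene with the list median in red and the 5th to 95th percentile of all tested genes (-0.59 to 0.44) in grey. The members lie between 0.02 and 0.27, while the target genes reach from -0.99 to 0.4 around a median of -0.19.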

How the data were processed

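RNA sequencing libraries were grouped by their titles into 3 vector and 3 Hmga2 samples, described in the labels as biological replicates. The values deposited by the authors are expected counts, which are model-based and need not be whole (67.3% to 70.1% of those above 0 were whole within 1e-06). Per the submitters' processing notes, Partek 3.0, Bowtie2 and build mm10 were used; these sources name no counter, annotation or strand setting. Counts were rounded and fitted with edgeR 4.0.16 in R 4.3.3 (filterByExpr, TMM, quasi-likelihood F test on group, Benjamini-Hochberg over all genes, threshold 0.05). Standard errors come from the F statistic, and 3 reads correspond to 0.0846 to 0.121 CPM. DESeq2 1.42.0 was the other tool. Correlations and likeness used log2 CPM with a prior count of 2. Exact tests used scipy 1.17.1. Within each group no library repeated another: chi-square over degrees of freedom ran from 24.8 to 57 for pairs of replicates. Pairs across the groups were not compared in this way. Lengths and positions come from GENCODE M21 on the same build as mm10, where 97.3% of tested symbols were found. The edgeR fit was tested on simulated counts for the 16739 genes, with 10 false calls. Named genes were the 9 members, Hmga2, up to 4 genes with the smallest p in each pathway list and the 5 genes most like Jak2; Irf9, Cish and Socs2 fall outside this rule. Members and lists were chosen with earlier results of these data known.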

Additional observations from a re-analysis of the deposited data

How the results depend on the processing

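Over 15 alternatives (other size factors or none, no count filter, DESeq2, a replicate block, each library left out, immunoglobulin genes left out, a term for immunoglobulin-rich libraries, a covariate for Y-linked genes and, added after seeing the data, DESeq2 with the block), 0 of the 9 members were called in each, and the smallest adjusted p of a member was 0.424. Of 135 such values 127 kept their direction. Leaving out 1 library moved Tyk2 between -0.16 and 0.26, Stat6 between -0.02 and 0.06 and Hmga2 between -0.49 and 0.06. The 8 that turned were Tyk2 without vector replicate 1 (-0.11), vector replicate 2 (-0.02) or Hmga2 replicate 2 (-0.16), and Stat6 without vector replicate 1 (-0.01), without Hmga2 replicate 1 (-0.00) and without Hmga2 replicate 3 (-0.02), with the immunoglobulin term (-0.03) and with the Y-linked covariate (-0.07). Hmga2 had a log2 fold change of -0.25 with all libraries, 0.06 without Hmga2 replicate 1 and 0.13 with the Y-linked covariate. Genes called over the whole table numbered 0 in edgeR, 1 without the count filter, 1 with the Y-linked covariate, 71 with DESeq2 and 79 with DESeq2 and the block; the cause was not tested. Leaving out 1 library gave 0 called genes each time, a range of -0.18 to -0.1 for the log2 ratio of Stat5a to Stat5b, of 0.1 to 0.16 for Jak2 to Jak1, and of -0.06 to 0.05 for Stat3 to the Stat5 sum.

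The titles give both groups replicate numbers 1 to 3, but same-numbered libraries did not deviate together across genes (r = -0.205, -0.499 and -0.263). Jak1 and Jak2, however, were highest in replicate 1 of both groups. Whether equal numbers share more than a name cannot be told from these values. With the replicate block edgeR called 0 genes and 0 members, with 719 genes at an unadjusted p under 0.05 against 935 without it; among the members Jak2 was under it with the block, and Stat3 and Stat5b without it. By these deviations from the group means, each library correlated best with a library of another number in the other group. Deviations within a group sum to 0, so this follows from the negative values for equal numbers and adds nothing to them.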
